A study of Homo sapiens with 5 samples.

Results

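The genes described here are those with exactly 3 poly(A) sites annotated as 3′ UTR in the deposited site table. They were found by counting the 3′ UTR sites of every gene identifier in that table. The table holds only sites whose RPM values (reads scaled by the authors to a library total) sum to at least 5 over the libraries. The number of sites of a gene therefore depends in part on its reads in both groups. The genes with exactly 3 are 1015 of 10671 genes with at least 1 3′ UTR site. A further 6330 genes had 1 site, 2472 had 2 and 854 had 4 or more. The 3 sites of a gene are called first, middle and last along the strand, so that, where all 3 lie in the same terminal exon, the first site gives the shortest 3′ UTR and the last site the longest. The 1015 genes held 3045 of the 18491 3′ UTR sites, and 1013 of them were found in the name table.

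Cleavage and polyadenylation set the 3′ end of an mRNA, and most human genes can be cut at more than 1 place (alternative polyadenylation, APA). Where several sites lie in the same terminal exon, the choice alters the length of the 3′ UTR and not the protein, and with it the microRNA and protein binding sites that the transcript carries. The product of NUDT21 is CFIm25, the part of cleavage factor I that recognises UGUA upstream of the cut, and in other cell types its loss is known for moving many genes to sites nearer the stop codon. A gene with a middle site adds a choice that a pair of sites cannot show, since the reads of the middle site can go either way.

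Poly(A)+ RNA of H9, a human embryonic stem cell line, was sequenced from the 3′ end in 2 control libraries and 3 libraries labelled CFIm25 KO. The controls were clones that had received the empty CRISPR/Cas9 vector, and the edited lines were clones picked after guide RNAs cut near the start codon of NUDT21. The study describes these clones as having much reduced CFIm25 with short deletions at the N-terminus, so CFIm25 KO is used as the label and not as a statement that the protein is gone. Every line is 1 clone, so the p-values below measure the spread between clones.

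Table reads came to 5203908 and 5243225 in the control libraries, against 7783102, 7009418 and 5684809 for CFIm25 KO clones 1 to 3. Genes with 3 sites took between 10.5% and 11.2% of the 3′ UTR reads of a library, and the median site held between 24 and 36 reads. NUDT21, which has 4 sites and is not among these genes, held 205.6 and 198.0 CPM (counts scaled to the table reads of the library) in control and 119.4, 112.0 and 116.5 in CFIm25 KO, so that its log2 level fell by 0.77 with an SE of 0.112 (edgeR adjusted p = 0.0324). All 9 markers of pluripotent cells were in the table, with a summed level of 3200 to 4962 CPM in control and 4422 to 4663 in CFIm25 KO. Control 2 was lowest, mainly through LIN28A. Of the neural markers 3 of 7 were in the table (92.1 to 117.2 CPM in control and 118.7 to 263.5 in CFIm25 KO, with PAX6, SOX1, NEUROD1 and DCX not among them), and of the mesoderm, endoderm, trophoblast and fibroblast markers 2 of 6, 1 of 6, 2 of 6 and 4 of 6. The fibroblast markers summed to 151.2 and 155.2 CPM in control and to 122.6, 83.5 and 203.3 in CFIm25 KO. The part of these markers in the results was not tested.

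In most of these genes the sites lay within 10000 bp of each other, and the last site was the leading site more often than either other. The distance from the first to the last site had a median of 1956 bp, with quartiles of 820 and 4096 bp. The first and middle sites were a median of 574 bp apart and the middle and last sites 612 bp. In 592 genes the authors had assigned all 3 sites to a single transcript, in 333 to 2 transcripts and in 90 to 3. In 128 genes the first and last sites were more than 10000 bp apart, and in only 8 of these were all sites assigned to 1 transcript. The widest named gene was CAMTA1, a calmodulin-binding transcription factor, with 897745 bp, followed by ASCC3 and ACACA. The last site lay within 25 bp of the gene end in the RefSeq GRCh38 annotation in 60.2% of 1007 genes. The middle site did so in 0.894% and the first in 0.199%.

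Averaged over the controls, the last site held most reads in 454 genes (44.7%), the middle site in 315 (31.0%) and the first site in 246 (24.2%). The leading site took a median of 68.4% of the gene's 3′ UTR reads. It took over 80% in 318 genes and under 50% in 170, and in 121 genes each site held over 20%. The last site led in 38.1% of genes whose first and last sites were under 500 bp apart, in 41.5% of those 500 to 2000 bp apart, in 51.0% of those 2000 to 10000 bp apart and in 43.8% of those further apart. RPS29, a ribosomal protein of the small subunit, sent between 99.8% and 99.9% of its reads to the first site in every library. PDXDC1 had 98.8% to 99.2% at the middle site, and ERGIC1, a membrane protein of the ER-Golgi intermediate compartment, 98.9% to 99.2% at the last. The most even gene with at least 50 CPM was OAZ1, the antizyme that inhibits polyamine synthesis, with 33.2% at the first site in control, 38.4% at the middle and 28.4% at the last.

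Over the 1015 genes the shares of first, middle and last sites were nearly the same in both groups. The median first share was 17.5% and 17.6% in control and 16.8%, 16.5% and 18.1% in CFIm25 KO, a difference of -0.41 percentage points (exact two-sided permutation test over 10 splits, p = 0.5). The control values lay between those of the CFIm25 KO clones. The median middle share was 21.1% and 21.5% in control and 22.0%, 22.3% and 21.4% in CFIm25 KO (difference 0.61, p = 0.3, exact permutation). The median last share was 36.1% and 36.3% in control and 36.3%, 36.7% and 36.0% in CFIm25 KO (difference 0.11, p = 0.8, exact permutation). The smallest p that 2 against 3 libraries allow is 0.1, and none of the 3 values reached it.

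Pooling the reads of all genes gave the highly expressed genes more weight, and there the groups did not overlap at the first and last sites but did at the middle. The first site took 28.6% and 29.3% of the pooled control reads and 27.6%, 27.4% and 28.3% of those in CFIm25 KO (difference -1.20, exact permutation p = 0.2). The last site took 46.9% and 46.6% in control and 48.2%, 48.5% and 47.2% in CFIm25 KO (difference 1.19, exact permutation p = 0.2). The middle site took 24.5% and 24.1% in control and 24.2%, 24.1% and 24.6% in CFIm25 KO (exact permutation p = 0.9). CFIm25 KO clone 3 lay nearest to the controls at the first and last sites, and it was also the CFIm25 KO library with a depth nearest to theirs. The part of depth in this order was not tested. A read-weighted end position, set to 0 at the first site and 100 at the last, had a median of 60.8 and 60.5 in control and 61.5, 60.7 and 61.6 in CFIm25 KO (difference 0.61, exact permutation p = 0.3).

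**Figure D1:**
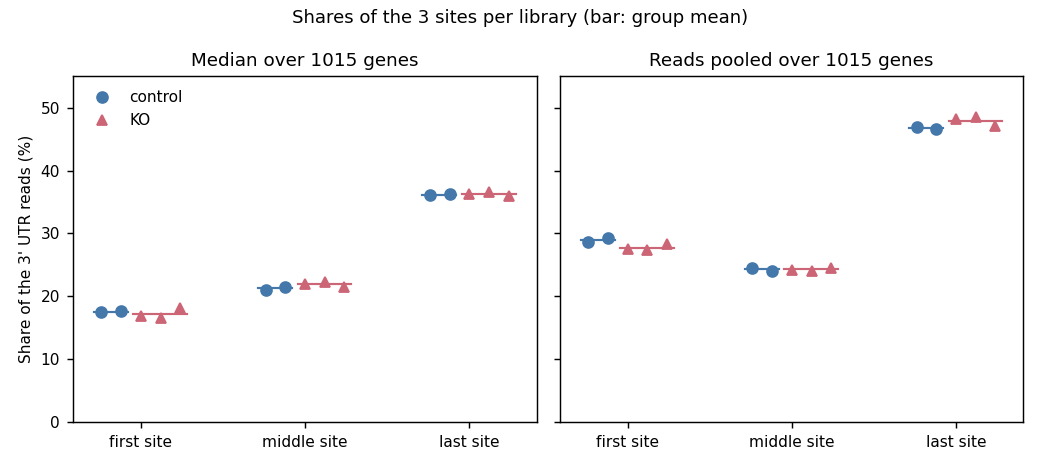
Share of 3′ UTR reads (%) at the first, middle and last site in each library, as the median over 1015 genes (left) and with the reads of all genes pooled (right); circles are control, triangles CFIm25 KO and bars group means. The medians overlap between the groups at all 3 sites, whereas the pooled last share is 46.6% to 46.9% in control and 47.2% to 48.5% in CFIm25 KO.

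Gene by gene, first sites more often had a lower share in CFIm25 KO than a higher one, and last sites more often a higher share, as in all genes with several sites. All 3 CFIm25 KO shares lay below both control shares at 194 first sites (19.1%) and above at 71 (7.0%). Over all 4280 genes with 2 or more sites the background was 19.2% below and 9% above. At the last site 187 genes (18.4%) were above and 100 (9.85%) below, beside 17.8% and 10.4% in the background. At the middle site the directions were nearly balanced, with 141 genes above and 131 below, beside 14.3% above and 14.1% below over all 12039 sites. The members' shares are thus near the background in both directions. Without the genes that have neighbouring sites under 100 bp apart, the counts at the first site were 150 below and 62 above of 782.

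**Figure D2:**
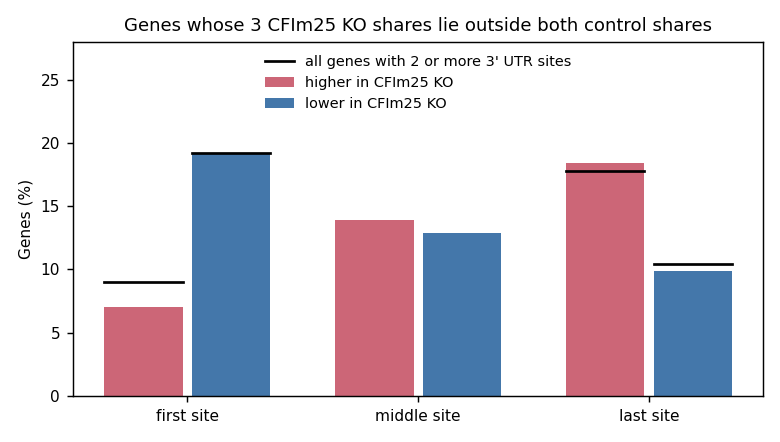
Percentage of the 1015 genes whose 3 CFIm25 KO shares all lie above (red) or all below (blue) both control shares, by site; black lines give the same percentage over all 4280 genes with 2 or more sites, drawn for first and last sites. First sites are lower in 19.1% and higher in 7.0%, and the black lines lie at 19.2% and 9%.

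The first and last sites were then set against each other within each gene in a count model (edgeR quasi-likelihood with a term for the library). Of 739 genes tested, 1 was called after adjustment over all 3272 multi-site genes tested, against a background of 0.153%. It was KSR1, which is described below. At an unadjusted p below 0.05 there were 71 genes with fewer first-site reads relative to the last in CFIm25 KO and 19 with more, that is 9.61% and 2.57%, beside 7.52% and 2.69% over all multi-site genes (10.2% in either direction). The median log2 shift was -0.16 over these genes and -0.13 over all multi-site genes. The same ratio taken library by library overlapped between the groups. Its median on the log2 scale was -0.97 and -0.78 in control and -0.95, -0.99 and -0.83 in CFIm25 KO (difference -0.05, exact permutation p = 0.6).

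Genes with 3 sites were compared with the other multi-site genes by the median first share. Genes with 2 sites had 35.6% and 35.7% in control and 33.3%, 33.3% and 34.4% in CFIm25 KO, and genes with 4 or more had 10.1% and 9.76% against 8.35%, 8.16% and 9.59%. The change in genes with 3 sites was 1.54 points less negative than in genes with 2 (exact permutation p = 0.1, the smallest possible) and 0.81 points less negative than in genes with 4 or more (p = 0.1, exact permutation). Neither difference held when reads were pooled over genes, where they were -0.29 (p = 0.7) and -1.21 (p = 0.5, both exact permutation). In genes with at least 100 reads they were -0.71 (p = 0.1) and -0.60 (p = 0.3, both exact permutation). The smallest possible p was thus reached in both directions.

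For single sites, the share of each site was tested against the other sites of its gene. Of the 3045 sites, 2592 passed the filter on low counts (831 first, 853 middle and 908 last). After adjustment over all 9924 sites of multi-site genes, 2 were called, or 0.0772%, beside 0.0605% over all sites tested. At an unadjusted p below 0.05 there were 263 (10.1%, background 10.7%, of which 5.44% higher and 5.22% lower). Of the members' sites, 72 first sites were lower (8.66%) and 25 higher (3.01%), and 28 middle sites lower (3.28%) and 38 higher (4.45%). Of the last sites, 32 were lower (3.52%) and 68 higher (7.49%). The background here covers all positions together. First against last leaned the same way over all multi-site genes, with 7.52% lower and 2.69% higher. The called sites were the first site of KSR1 and the last site of SEMA4D.

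KSR1 (ENSG00000141068) encodes a scaffold that brings RAF, MEK and ERK together. Its sites lie at positions 27626279, 27626328 and 27626435 of chromosome 17 (GRCh38, plus strand), so the first and middle sites are 49 bp apart. The first site had 0 reads in both controls, against 71, 49 and 42 reads in CFIm25 KO clones 1 to 3. No control read lay at the first site, whereas every CFIm25 KO clone had many. The site thus passed the RPM minimum through CFIm25 KO reads alone, so its call is not independent of that minimum. It took 0 of 659 control reads, which allows a share of up to 0.455%, and 14.8% of 1098 CFIm25 KO reads, so its share was at least 32.4-fold higher in CFIm25 KO (edgeR adjusted p = 1.71e-05). The middle site held 80.7% and 81.4% in control and 65.4%, 64.3% and 67.5% in CFIm25 KO. The first and middle sites together held 80.7% and 81.4% in control and 80.8%, 79.0% and 81.5% in CFIm25 KO, and the last site 19.3% and 18.6% against 19.2%, 21.0% and 18.5%. With sites closer than 100 bp merged, an alternative chosen after seeing these values, the log2 odds ratio of the joined site was -0.06 (SE 0.263, edgeR adjusted p = 0.960). The change in KSR1 therefore lay between places 49 bp apart, with no difference in the sum that exceeded the spread.

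An abrupt 0 of this kind was found at other closely spaced sites and in both groups. Among the 3045 sites, 29 held 0 reads in at least 1 library and a mean of at least 20 reads in the libraries that had any. Of these, 27 were among the 480 sites with a neighbour under 100 bp away (5.63%), and 2 among the other 2565 (0.0780%). The 2 were the middle site of CRIPT and the last site of AASS, with their nearest neighbours 105 and 132 bp away. Controls 1 and 2 had 13 and 12 such sites and CFIm25 KO clones 1 to 3 had 14, 11 and 6. KSR1 was the only one of the 29 at 0 in both controls and in no CFIm25 KO clone, and no site was at 0 in all CFIm25 KO clones and in no control.

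OAZ1 shows the pattern at high depth. Its first site had 1728 and 1328 control reads, against 1585, 1680 and 0 in the CFIm25 KO clones. The middle site 76 bp downstream had 1761 and 1753 control reads, against 1859, 1645 and 2745. The 0 of clone 3 thus stands beside a middle site that is higher there than in any other library. The last site, 170 bp further on, held 27.7% and 29.2% in control and 39.3%, 36.9% and 31.8% in CFIm25 KO, with no overlap between the groups and an edgeR adjusted p of 0.436. ACAT2, an acetyl-CoA acetyltransferase, had 0 reads at the first and last sites of CFIm25 KO clone 1 and 2558 at the middle site, which held 0, 1, 0 and 0 in the other libraries. In AMZ2, a metalloprotease, the middle site had 96 and 123 control reads, against 167, 109 and 0 in the CFIm25 KO clones. In CBX3, the heterochromatin protein HP1 gamma, the first site held reads in CFIm25 KO clone 3 only, with 61. How such places were joined or parted when the authors clustered read ends was not tested.

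**Figure D3:**
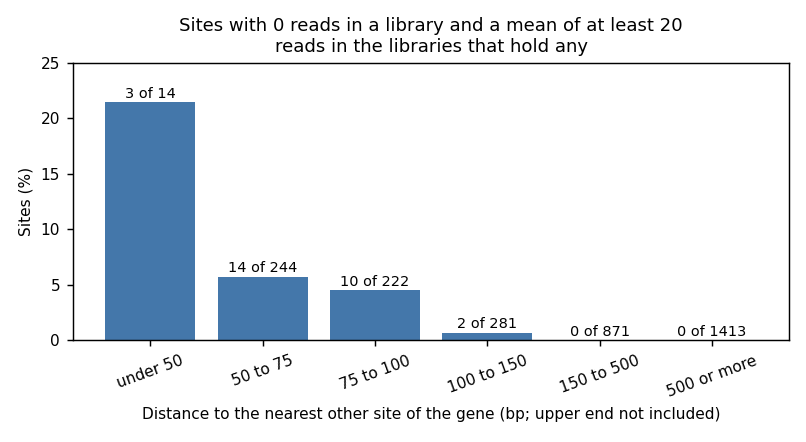
Percentage of sites with 0 reads in at least 1 library and a mean of at least 20 reads in the libraries that hold any, by the distance (bp) to the nearest other 3′ UTR site of the gene. They are 27 of 480 sites with a neighbour under 100 bp away and 2 of 2565 with none.

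SEMA4D (ENSG00000187764), a semaphorin that signals through plexin receptors, lies on the minus strand of chromosome 9, with its first and middle sites 153 bp apart and the last a further 15637 bp away. Its last site had 11 and 19 control reads, against 4, 6 and 4 reads in the CFIm25 KO clones. Its middle site had 770 and 820 control reads, against 1360, 1343 and 1180. The last site was thus a rare one that was higher in both controls than in any CFIm25 KO clone. It met the RPM minimum mainly through control reads, so its call is not independent of that minimum. Its share fell by 2.33 on the log2 odds scale (SE 0.390, edgeR adjusted p = 0.0382), from 1.37% and 2.20% to 0.286%, 0.434% and 0.330%. The call rests on few reads and was lost without control 2 (adjusted p = 0.310), without CFIm25 KO clone 1 (0.0507) or clone 2 (0.0747), with no count filter (0.0733), with DESeq2 (0.0559) and with diffSpliceDGE (0.125). The log2 odds ratio lay between -2.52 and -1.95 in these settings.

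The other genes with the smallest p and no overlap between the groups were NGRN, RPL4, GMCL1, TNRC6A, HMGN3, LRRC8B, ODF2L and RPRD1A. None was called by usage in edgeR with the library term, all 5 libraries, the sites as deposited and no replicate block. With a further term for the replicate number (the replicate block), the last sites of NGRN (edgeR adjusted p = 0.0261) and RPL4 (0.00563) were called. NGRN, a mitochondrial protein needed for ribosome assembly there, had a last site 5665 bp from the middle with 7.97% and 4.79% of the control reads and 2.19%, 1.71% and 1.12% of those in CFIm25 KO (log2 odds ratio -1.96, SE 0.355, edgeR adjusted p = 0.0572). It was called with diffSpliceDGE of edgeR, which had no library term (adjusted p = 0.0395), and in edgeR without control 2 (0.0256), CFIm25 KO clone 1 (0.0226) or clone 3 (0.0492), but not without control 1 (0.486) or clone 2 (0.192). TNRC6A encodes a GW182 protein, the partner through which Argonaute silences microRNA targets. Its last site held 67.5% and 67.7% in control and 50.4%, 52.5% and 51.1% in CFIm25 KO, and its middle site 761 bp upstream held 32.2% and 31.1% against 48.6%, 45.6% and 45.4%. The groups did not overlap at either site, and the log2 odds ratio of the last site was -0.99 (SE 0.235, edgeR adjusted p = 0.220).

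HMGN3, a nucleosome-binding protein, differed in the opposite direction. Its last site held 75.3% and 76.7% in control and 85.8%, 88.7% and 84.7% in CFIm25 KO (log2 odds ratio 1.01, SE 0.242, edgeR adjusted p = 0.220). LRRC8B, a subunit of the volume-regulated anion channel, had 70.7% and 67.7% at the middle site in control and 88.5%, 82.2% and 89.0% in CFIm25 KO, with both flanking sites lower in every CFIm25 KO clone. In ODF2L, a centriole protein, the middle site held 60% and 60.3% in control and 32.7%, 33.7% and 37.3% in CFIm25 KO, and the first site 35.0% and 31.5% against 48.6%, 59.3% and 55.4%. RPRD1A, which binds the tail of RNA polymerase II, had 27.1% and 18.0% at the first site in control and 7.09%, 10.5% and 11.5% in CFIm25 KO. The first site of RPRD1A is 33745 bp from the middle site. In GMCL1 the first site had 17 and 14 control reads, against 9, 7 and 1 in the CFIm25 KO clones. That site of GMCL1 met the RPM minimum mainly through control reads, so its p is not independent of the minimum. In RPL4, a ribosomal protein of the large subunit, the first site held at least 99.1% in every library, and the last site had 1 and 2 control reads, against 16, 14 and 5. The last site of RPL4 was also called without CFIm25 KO clone 3 (edgeR adjusted p = 0.0107). It was not called with DESeq2 (adjusted p = 0.582), with diffSpliceDGE (0.615) or with sites closer than 100 bp merged (edgeR, 0.0533). This site met the RPM minimum mainly through CFIm25 KO reads.

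With sites closer than 100 bp merged, 6 of 2367 sites were called, beside a background of 0.366% of all sites of multi-site genes. KSR1 was no longer among them. They were the last sites of NGRN (edgeR adjusted p = 0.00868), SEMA4D (0.00993), HMGN3 (0.0242) and TNRC6A (0.0474), the first site of GMCL1 (0.0372), and the joined first and middle site of HMGN3. In HMGN3 the joined site held 24.7% and 23.3% in control and 14.2%, 11.3% and 15.3% in CFIm25 KO. Merging left 2 places in HMGN3, so its 2 calls are the same test. Genes with 2 places count at both in the background as well. Of these genes, NGRN, SEMA4D and TNRC6A had a lower share at the last site in CFIm25 KO, and GMCL1 and HMGN3 a lower share upstream. On the sites as deposited, diffSpliceDGE gave log2 values of 0.19 for HMGN3 and -0.38 for TNRC6A at the last site (unadjusted p = 0.381 and 0.0921). The first site of GMCL1 was not called there either (diffSpliceDGE adjusted p = 0.198). With the same merging the first against last shift was called in 0 of 753 genes (background 0.0964%), with 23 higher and 81 lower at an unadjusted p below 0.05 in edgeR.

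**Figure D4:**
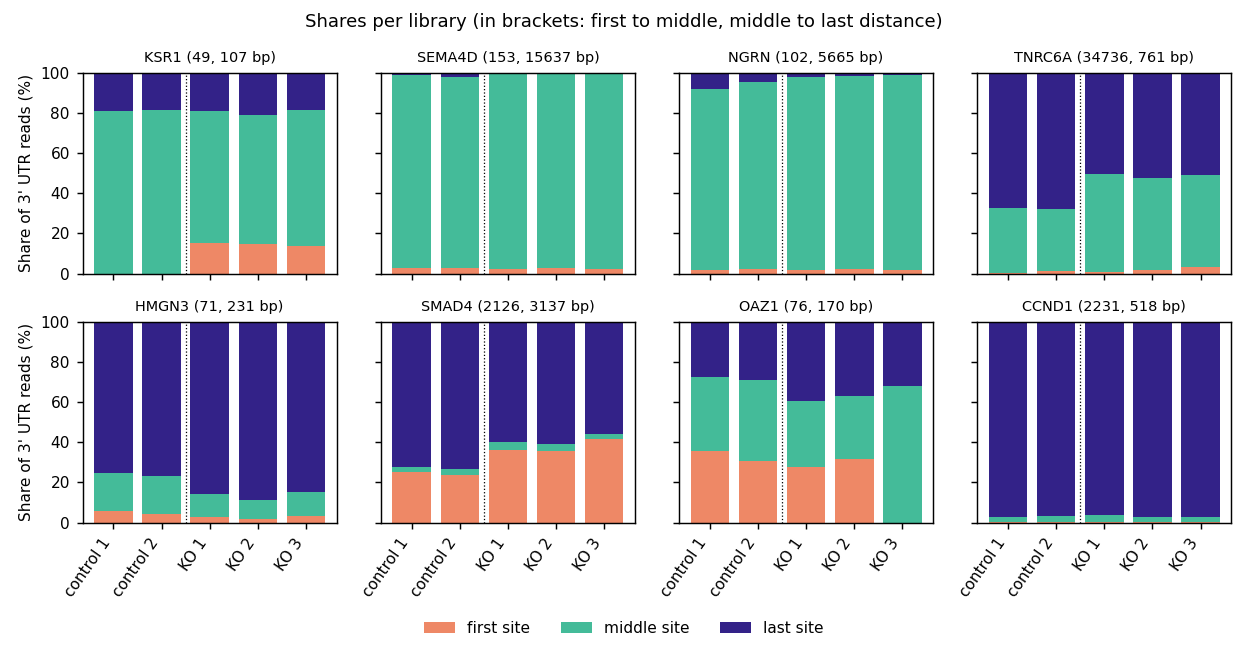
Stacked shares (%) of the first, middle and last site in each library for 8 genes, with the distances between the sites in brackets; the dotted line parts control from CFIm25 KO. In KSR1 the first site appears in the CFIm25 KO clones only while the last share stays between 18.5% and 21.0%, and in OAZ1 the first site is at 0 in CFIm25 KO clone 3.

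The leading site was the same in all 5 libraries in 809 genes (79.7%). In 17 genes (1.67%) it was the same within each group and different between them, beside 1.21% over all multi-site genes. In 11 of the 17 the leading site of CFIm25 KO lay further downstream and in 6 further upstream. PDCD4, which restrains translation initiation, went from the middle site (45.8% and 50% in control) to the last (55.6%, 56.1% and 49.1% in CFIm25 KO). In CFIm25 KO clone 3 this rested on 26 reads at the last site against 23 at the middle. TNRC6B, a second GW182 protein, went from the middle site (39.2% and 42.3%) to the first (47.7%, 64.5% and 54.2%). KIF13A, a kinesin, had 34.1% and 35.8% at the first site in control and 50.6%, 50.9% and 49.6% in CFIm25 KO. Its middle site, which led in control, lies under 100 bp from its last site. As the first site held under 50% in CFIm25 KO clone 3, the change of leading site there depends on counting these neighbours apart. These 3 genes were chosen after their values were seen, and none of their sites was called (edgeR adjusted p between 0.319 and 0.884). In the 686 genes with a mean of at least 100 reads, the largest difference of a share between a pair of libraries had a median of 3.57 points between the controls, 3.70 to 4.19 between CFIm25 KO clones and 3.98 to 5.12 between groups.

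**Figure D5:**
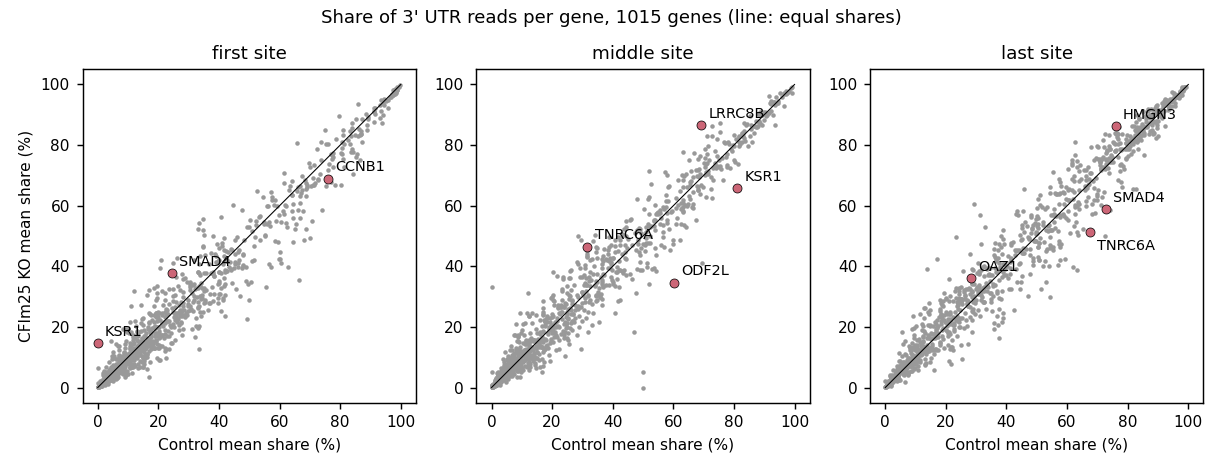
Mean share of 3′ UTR reads (%) in control (horizontal) against CFIm25 KO (vertical) for the first, middle and last site of 1015 genes; each dot is a gene, red dots are named genes, and the line marks equal shares. Most genes lie near the line, while SMAD4 and TNRC6A lie below it at the last site and HMGN3 above.

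Among genes reported as APA targets of CFIm25 in other cell types, 4 of the 9 that the table held had 3 sites. None of their 11 tested sites was called in edgeR (1 at an unadjusted p below 0.05). Over all tested sites of multi-site genes 10.7% were below 0.05, the background given for the lists below. DICER1, the tenth on the list, is not analysed here. CCND1, the cyclin that drives entry into S phase, sent 97.1% and 96.8% of its reads to the last site in control and 96.3%, 96.9% and 97.1% in CFIm25 KO. The CCND1 values thus overlapped at over 96% in every library (log2 odds ratio -0.09, SE 0.239). TIMP2, an inhibitor of matrix metalloproteinases, had 1.43% and 2.41% at the first site in control and 1.00%, 1.02% and 1.41% in CFIm25 KO (log2 odds ratio -0.76, SE 0.310, edgeR adjusted p = 0.392). PAK1, a kinase activated by RAC1, had 97.0% to 97.6% at the last site in all libraries. In the 3 of these genes tested for first against last, the log2 shift was below 0 in all, with a median of -0.18, beside 264 of 739 above 0 and a median of -0.16 over all members tested.

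Of the genes that make and use microRNAs, 8 had 3 sites. In edgeR 0 of 21 sites were called (5 at an unadjusted p below 0.05, background 10.7%). XPO5, which exports precursor microRNAs from the nucleus, had 16.1% and 15.3% at the first site in control and 12.3%, 7.77% and 11.9% in CFIm25 KO (log2 odds ratio -0.67, SE 0.266, edgeR adjusted p = 0.382). DROSHA, the nuclear nuclease that cuts primary microRNAs, held 77.2% and 74.5% at the first site in control and 73.9%, 69.1% and 71.9% in CFIm25 KO. LIN28A, which blocks let-7 maturation and is a marker of pluripotent cells, had 11898 and 3396 control reads at the last site, against 17304, 16689 and 9823 in the CFIm25 KO clones. Control 2 stood apart in LIN28A from all other libraries, and the last site still took 96.9% of its reads there and 99% to 99.4% elsewhere.

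Splicing and RNA-binding regulators gave 7 genes with 0 of 18 sites called (4 at an unadjusted p below 0.05, edgeR, background 10.7%). The last site led in 6 of these genes. The exception was SRSF7, a serine- and arginine-rich splicing factor, whose last site held 16.5% and 19.5% in control and 27.3%, 29.0% and 21.0% in CFIm25 KO (log2 odds ratio 0.66, SE 0.253, edgeR adjusted p = 0.371). SRSF2 had 82.4% and 85.7% at the last site in control and 86.6%, 88.1% and 83.2% in CFIm25 KO. Among the cleavage and polyadenylation factors only CSTF1, a subunit of the complex that binds downstream of the cut, had 3 sites, and its shares overlapped between the groups at each of them (log2 shift of first against last -0.14).

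Pluripotency genes gave 4 genes with 0 of 11 sites called in edgeR and 0 at an unadjusted p below 0.05 (background 10.7%). TRIM71, a let-7 target and E3 ligase of stem cells, had 97.8% to 98.5% at the last site in every library. DNMT3A, a de novo DNA methyltransferase, had 89.6% to 92.6% at the middle site. The 7 cell cycle genes had 0 of 17 sites called (4 at an unadjusted p below 0.05, edgeR, background 10.7%). CCNB1, the mitotic cyclin, held 76.7% and 75.3% at the first site in control and 69.2%, 62.6% and 75.1% in CFIm25 KO, and at the middle site 6.96% and 7.63% against 9.16%, 13.3% and 11.6%. Its clone 3 lay beside the controls at the first site but not at the middle one. CDC27, a subunit of the anaphase-promoting complex, overlapped between the groups at all sites. Chromatin modifiers gave 11 genes with 0 of 24 sites called (3 at an unadjusted p below 0.05, edgeR, background 10.7%). SMARCA4, the BRG1 ATPase, had 43.9% and 45.4% at the last site in control and 45.0%, 51.6% and 49.0% in CFIm25 KO, and SETD5 had at least 97.5% there in every library.

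Signalling kinases, phosphatases and receptors were the largest list with 22 genes, of which 13 were led by the last site. In edgeR 0 of 54 sites were called (8 at an unadjusted p below 0.05, background 10.7%). SMAD4, the common mediator of TGF-beta and BMP signals, had the first site 5263 bp before the last. The first site of SMAD4 held 25.1% and 23.9% in control and 36.0%, 35.6% and 41.7% in CFIm25 KO, and the last site 72.1% and 73.3% against 59.8%, 60.7% and 55.8%. The groups did not overlap at either end (first against last log2 shift 0.92). The adjusted p of the last site was 0.220. MAP3K7, the kinase TAK1, and NRAS, a small GTPase, overlapped between the groups at every site, with 79.5% to 84.6% and 97.2% to 98.2% at the last.

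Among the 18 ubiquitin ligases and deubiquitinases, 0 of 48 sites were called (2 at an unadjusted p below 0.05, edgeR, background 10.7%). MDM2, the ligase that degrades p53, had 5.62% and 3.63% at the last site in control and 3.27%, 1.31% and 2.75% in CFIm25 KO (log2 odds ratio -0.89, SE 0.362, edgeR adjusted p = 0.396), and USP48 and UBE2N had the middle site in the lead with 60.2% to 66.7% and 57.4% to 64.2%. The 13 genes of membrane traffic GTPases and coats had 0 of 34 sites called (4 at an unadjusted p below 0.05, edgeR, background 10.7%). Their first against last shift was below 0 in 8 of 9 genes tested, with a median of -0.34. Over all 739 genes tested 264 were above 0 and the median was -0.16. RHOA, a GTPase of the actin cytoskeleton, had 81.4% and 81.7% at the last site in control and 85.6%, 85.2% and 88.5% in CFIm25 KO (log2 odds ratio 0.53, SE 0.236, edgeR adjusted p = 0.436). RAC1, a related GTPase, had 90.3% and 89.2% at the last site in control and 92.8%, 91.4% and 91.5% in CFIm25 KO. CLTC, the clathrin heavy chain, had 17.1% and 15.2% at the last site in control and 15.7%, 11.0% and 10.4% in CFIm25 KO.

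The 8 translation factors had 0 of 22 sites called (1 at an unadjusted p below 0.05, edgeR, background 10.7%). Their first against last shifts were above 0 in 5 of 8, beside 264 of 739 over all members tested. EIF1, which helps select the start codon, had 87.0% and 86.8% at the first site in control and 83.1%, 83.9% and 84.0% in CFIm25 KO, with the middle site at 12.4% and 12.7% against 16.3%, 15.5% and 15.5%. The EIF1 shares did not overlap at either site, and the edgeR adjusted p was 0.561 at the first and 0.544 at the middle site. EIF2S2, a subunit of the factor that carries the initiator tRNA, had 96.3% to 97.1% at the middle site. EIF4E2, a cap-binding protein, had 53.8% and 58.0% at the first site in control and 58.8%, 61.6% and 59.6% in CFIm25 KO. Nuclear transport was represented by XPO5 and XPO7, an exportin, whose last site held 88.8% and 90.2% in control and 87.2%, 82.5% and 86.9% in CFIm25 KO. None of the 6 sites of these 2 genes was called in edgeR (2 at an unadjusted p below 0.05, background 10.7%).

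The genes with most reads showed small differences on a large base. SCD, the desaturase that makes monounsaturated fatty acids, had 14384 and 15934 control reads at the last site, against 19114, 16783 and 15544 in the CFIm25 KO clones, that is 97.2% and 97.1% against 97.7%, 97.5% and 97.8%. FTH1, the ferritin heavy chain, held 98.2% and 98.1% at the first site in control and 98.7%, 98.5% and 98.6% in CFIm25 KO. PTMA, prothymosin alpha, varied more among the CFIm25 KO clones (81.0%, 74.5% and 70.4% at the last site) than between them and the controls (70.0% and 71.9%). PTMA, FTH1, RPL4 and RPS29 have processed pseudogenes elsewhere in the genome, so reads could have been split between copies.

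At the gene level, with the reads of all sites of a gene summed, 0 of the 1015 genes were called in edgeR, beside 0.0591% of all 11841 genes tested. At an unadjusted p below 0.05 there were 34 higher and 48 lower in CFIm25 KO (8.08% in all, beside a background of 7.13%, with 3.46% higher and 3.67% lower), and DESeq2 called 3. In bulk libraries fewer cells of a kind and less RNA per cell cannot be told apart. Among them were MTHFD1, an enzyme of one-carbon metabolism, and DDX3X, an RNA helicase, named after their values were seen. MTHFD1 held 62.3 and 70.8 CPM in control and 36.6, 36.5 and 22.3 in CFIm25 KO (log2 difference -1.03, SE 0.200, edgeR adjusted p = 0.159). DDX3X held 90.5 and 85.1 CPM in control and 132.6, 132.7 and 131.8 in CFIm25 KO (log2 difference 0.63, SE 0.119, edgeR adjusted p = 0.121). The groups did not overlap in either gene. Without CFIm25 KO clone 3, 8 genes were called. The share called over all genes is not given here for DESeq2 or without clone 3, so neither count can be set against a background.

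When each site was tested for its own level instead of its share, 1 of 2592 sites was called (0.0386%, background 0.101%). It was the first site of KSR1. At an unadjusted p below 0.05 there were 211 sites (8.14%, beside a background of 8.11%, with 4.11% higher and 4.01% lower). Among first sites 22 were higher (2.65%) and 58 lower (6.98%), whereas among last sites 29 were higher (3.19%) and 28 lower (3.08%). The background covers all sites and is not parted by position.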

How the data were processed

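The study sequenced 3′ ends with QuantSeq Rev in 2 control and 3 CFIm25 KO libraries of H9. The authors mapped the reads with Bowtie2, took read ends as poly(A) junctions, discarded ends from internal priming and grouped the rest into sites. What they deposited is a table of raw counts per site and library, of RPM values that the authors scaled to a library total (with their sum, deposited as a score, at least 5 per site), of a ratio of mean RPM (fold change) and of a p-value per site. The counts alone were tested. The authors' fold and p-value columns were not used. The labels name hg19, but 98.8% of 23762 sites lay within 5000 bp of their RefSeq gene in GRCh38, against 12.46% of 24707 in GRCh37, so positions are GRCh38. The genome at hand was of another build, so no site sequence or motif was read.

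The counts summed to 5203908 to 7783102 per library. Reads carry no molecular identifiers, so the limit for a count of 0 (3 reads over the group) covers counting error only. Usage tests compared the reads of a site with those of the other 3′ UTR sites of its gene in edgeR 4.0.16 (R 4.3.3, TMM, filterByExpr, robust quasi-likelihood, two-sided, library as a term). Benjamini-Hochberg adjustment ran over all sites of all multi-site genes at 0.05. First against last was fitted likewise, and genes and single sites over the whole table. Library medians covered genes with a mean of at least 20 reads and were compared by exact two-sided permutation over 10 splits. Alternatives were DESeq2 1.42.0 and its size factors, no filter, diffSpliceDGE without a library term, a replicate block, each library left out, pooled or mean shares, at least 100 reads, genes without neighbours under 100 bp, other pairs of sites, and, chosen after seeing the data, merging of sites under 100 bp apart.

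The members, lists and alternatives were chosen with earlier results of these data known. Named are called genes, the 10 with the smallest usage p and no overlap, the 6 with most reads, the 3 of each list with the highest CPM, the widest and narrowest, the most one-sided and most even genes, and the study's examples. Some items that this rule names are not reported here.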

Additional observations from a re-analysis of the deposited data

How the results depend on the processing

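Without a filter on low counts or with DESeq2, 1 site was called by usage in place of 2, and merging sites under 100 bp apart, chosen after seeing the data, gave 6. Leaving out single libraries gave 1 to 11 (9 without control 2 or without CFIm25 KO clone 3). Merging turned the KSR1 first-site log2 odds ratio to -0.0581. Genes called for first against last went from 1 to 0 with merging and to between 1 and 6 without single libraries (6 without CFIm25 KO clone 3). Expression calls went from 0 to 3 with DESeq2 and to between 0 and 8 without single libraries, and single-site calls from 1 to 4 with DESeq2 and to between 2 and 20, 20 being without CFIm25 KO clone 3.

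The deviations of same-numbered libraries correlated at -0.04 and -0.13 over 686 genes. With 2 controls the deviations of each mirror those of the other, so these values cannot tell whether the replicate numbers pair the samples. The replicate block gave 17 usage, 11 first against last, 56 expression and 49 single-site calls. For the block, DESeq2, no filter and the libraries left out, the share called over all features is not given here. Their counts therefore cannot be read as particular to genes with 3 sites. The differences in first, middle and last share under the block were -0.90, 0.84 and 0.27 points. They equal those without CFIm25 KO clone 3, which has no control of its number.

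The middle share turned to -0.34 points in genes with at least 100 reads. The last share ranged from -0.08 to 0.27 points without single libraries and was negative without control 1 (-0.00297) and without CFIm25 KO clone 2 (-0.0777). The difference of the first-site change from genes with 2 sites turned to -0.29 with pooled reads, -0.12 with means and -0.71 in genes with at least 100 reads, and that from genes with 4 or more sites to -1.21 with pooled reads and -0.60 in genes with at least 100 reads. The cause was not tested in any of these. A median of 24 to 36 reads per site limits what single sites can show.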

Other observations

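The depth of a gene went with how evenly its sites were used. In the 151 genes under 10 CPM the median control shares were 28.2% at the first site, 30.9% at the middle and 32.1% at the last, whereas in the 313 genes over 50 CPM they were 8.14%, 6.90% and 41.1%. The table holds sites with a summed RPM of at least 5, and the part of this minimum in the difference was not tested.

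AASS, an enzyme of lysine breakdown, and GSTZ1, an enzyme of tyrosine breakdown, were the genes in which all 3 sites had a 0 of the kind described for OAZ1, besides ACAT2. In GSTZ1 the middle site held 132 reads in control 2 and 0 in every other library, while the first and last sites held 0 in control 2 and 45 to 147 elsewhere. In AASS the last site held 0 reads in control 1, 266 in control 2 and 925, 453 and 278 in CFIm25 KO, and the middle site held 846 reads in control 1. In STK25, a kinase of the GCKIII group, the first and middle sites together held 96.0% to 97.1% in all libraries, although the first site was at 0 in control 1 and in CFIm25 KO clones 1 and 2.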
